A study of Mus musculus with 4 samples.

Results

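The comparison described here is that of Arglu1 knockdown in N2a cells, a mouse neuroblastoma line of neural crest type, under dexamethasone (Dex), a synthetic glucocorticoid. It sets the siArglu1 Dex library against the siControl Dex library, 2 of the 4 RNA-seq libraries of the series, chosen by their labels for siRNA and treatment. siControl Dex cells received a pool of non-targeting siRNAs and siArglu1 Dex cells received an siRNA against Arglu1, both for 48 h. Both were then given 100 nM Dex for 4 h. The study's methods name 1 siRNA sequence for the knockdown. Its effects on other transcripts, if any, cannot be told apart here from those of lower Arglu1. The other 2 libraries, siControl Veh and siArglu1 Veh, carry the same siRNAs and received ethanol vehicle for 4 h. They share no library with the Dex pair and serve here as a second knockdown pair. All 4 groups were transfected with a lipid reagent, so no untransfected cells enter the comparison. RNA of 3 cultures was pooled for each group and 1 polyA library was made of each pool. The Dex pair thus has 1 library a side and no replicate, no test of its 2 libraries alone was possible, and differences are described by rules of size.

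ARGLU1 is a nuclear protein with an arginine- and serine-rich part, like the SR proteins that guide the choice of splice sites, and a glutamate-rich part. Dex binds the glucocorticoid receptor (GR), encoded by Nr3c1, which then enters the nucleus, binds DNA and recruits coactivators to its target genes. Cassette exons are exons that a transcript may include or skip. The shortest of them, the microexons, are too short for the usual definition of an exon by factors bound across it, are used mostly in neurons, and depend on activators such as SRRM4 that act at the upstream 3′ splice site.

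The deposited gene table gives reads counted on each of 22667 genes. Reads on genes came to 71228049 in siControl Dex and 86541444 in siArglu1 Dex, the deepest of the 4 libraries, against 66074574 and 66590878 in the vehicle pair. The 10 genes with the most reads took between 6.98% and 8.72% of a library. The libraries were scaled with the TMM method, whose factors lay between 0.984 and 1.01, and log2 ratios were taken from depth-scaled counts (CPM) after adding a prior count of 1. A gene was tested against the size rule if its reads over all libraries came to 75 or more, which left 12497 genes. The authors' cRPKM, the reads per kilobase of uniquely mappable positions scaled to sequencing depth, is used below for levels. A range in brackets after a log2 ratio is its exact 95% interval, conditional on the reads that the pair of libraries had together. These intervals cover counting error only and say nothing of the variation between cultures.

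Short exons passed the rules of size below more often than longer ones, so the sequences of 10 exons are shown first. Each is given 5′ to 3′ as it stands in the spliced transcript, with the short exon in capitals between the last 15 bases of the exon before it and the first 15 bases of the exon after it.
Nbea: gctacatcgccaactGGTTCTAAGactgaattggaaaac
Psap: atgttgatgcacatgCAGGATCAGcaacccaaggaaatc
Lphn2: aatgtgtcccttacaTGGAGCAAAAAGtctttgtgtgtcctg
Rapgef6: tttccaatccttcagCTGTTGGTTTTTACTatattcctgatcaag
Git2: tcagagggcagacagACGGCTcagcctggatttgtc
Agrn: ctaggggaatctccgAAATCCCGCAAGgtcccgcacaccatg
L1cam: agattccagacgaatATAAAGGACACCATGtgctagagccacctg
Ank2: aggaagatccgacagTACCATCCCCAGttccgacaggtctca
Snx14: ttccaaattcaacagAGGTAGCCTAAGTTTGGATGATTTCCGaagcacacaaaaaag
Ptbp2: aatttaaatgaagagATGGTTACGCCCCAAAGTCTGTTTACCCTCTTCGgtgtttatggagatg
The first 7 are microexons whose inclusion was lower in siArglu1 Dex, Ank2 is the microexon with the largest gain, and Snx14 and Ptbp2 hold longer exons with large losses. They lie within coding sequence, in GRCm38 at chr3:55994048-55994056 (Nbea, minus strand), chr10:60297537-60297545 (Psap, plus strand), chr3:148860427-148860438 (Lphn2, minus strand), chr11:54651749-54651763 (Rapgef6, plus strand), chr5:114753148-114753153 (Git2, minus strand), chr4:156169546-156169557 (Agrn, minus strand), chrX:73867022-73867036 (L1cam, minus strand), chr3:126979256-126979267 (Ank2, minus strand), chr9:88400723-88400749 (Snx14, minus strand) and chr3:119724612-119724645 (Ptbp2, minus strand). These positions come from the GENCODE M21 transcript that has an exon of the deposited length between introns of the deposited lengths. All other exon positions below are those of the deposited tables, for which the submitters' processing notes name the build mm9.

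The targeted gene was examined first. Arglu1 (ENSMUSG00000040459) had 11825 reads in siControl Dex and 3254 in siArglu1 Dex, which after scaling left 22.5% of its transcript (21.7% to 23.4%). In the vehicle pair 26.3% was left (25.2% to 27.5%). Its cRPKM was 99.9 in siControl Dex and 22.6 in siArglu1 Dex, and the library labels hold in both pairs. Nr3c1 had 2890 reads in siControl Dex and 3285 in siArglu1 Dex, a log2 ratio of -0.10 (-0.18 to -0.03). The chaperones that hold GR ready for its ligand stayed near it: the log2 ratio was -0.21 for Hsp90aa1, -0.12 for Hsp90ab1, -0.37 for Fkbp4 and -0.16 for Ptges3. None of the 8 receptor and chaperone genes tested passed the size rule apart from Arglu1 itself. The mineralocorticoid receptor gene Nr3c2 had 4 and 3 reads. Of 15 markers of the line's origin 12 were tested, 4 of them higher and 1 lower, against 6.19% and 5.93% of all genes tested. By log2 ratio the 4 were Dbh (2.01), Gata3 (1.54), Mycn (1.29) and Elavl4 (0.91), and the lower one was Th (-0.9). The neural crest factor Hand2 had 35248 reads in siControl Dex and 60535 in siArglu1 Dex, and the granin gene Chga had 34616 and 42098. Nefl, with 0 and 4 reads, is a marker of this lineage that was absent or nearly so.

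A gene is called higher or lower in siArglu1 Dex where its log2 ratio was at least 0.81 or at most -0.81, a rule of size. By this rule 773 genes were higher (6.19% of those tested) and 741 were lower (5.93%), together 12.1%. The counting interval excluded 0 for 767 of the higher and 739 of the lower genes. A log2 ratio of 1, which is a 2-fold change, was reached by 495 higher and 472 lower genes, a 4-fold change by 52 and 49, and an 8-fold change by 15 and 6. The higher genes took 1.31% of all reads in siControl Dex and 2.9% in siArglu1 Dex, and the lower genes took 3.3% and 1.53%. The genes with the largest rises were sparse in siControl Dex, whereas the falls reached genes of middling abundance. The level in siControl Dex is the divisor of the ratio, so this split is partly built into the ranking.

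**Figure D1:**
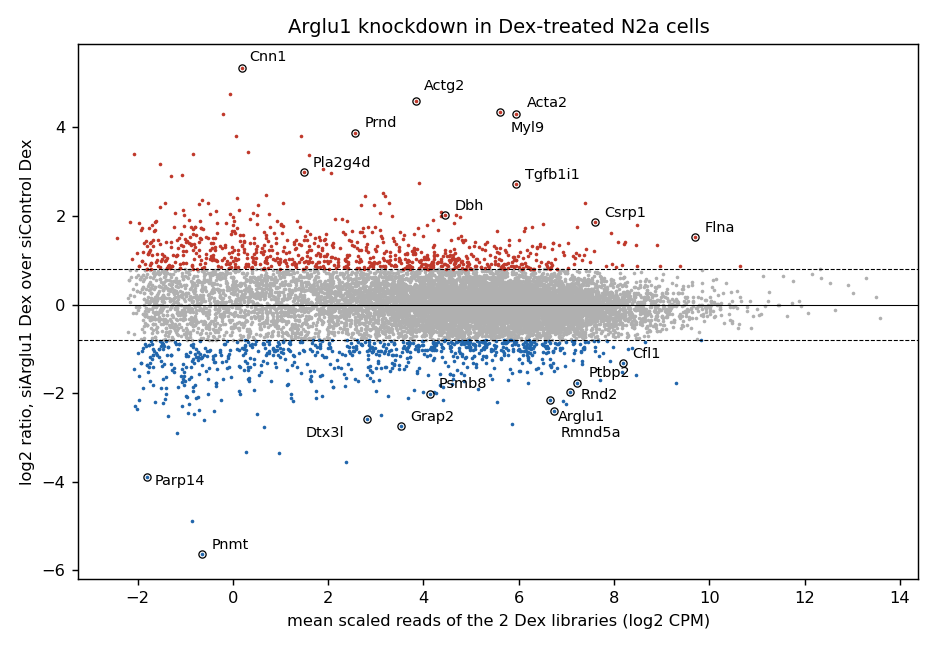
Each point is 1 of the 12497 genes tested, with the mean of its TMM-scaled reads in the 2 Dex libraries on the x axis (log2 CPM) and its log2 ratio of siArglu1 Dex over siControl Dex on the y axis. Red and blue points lie past the dashed lines at 0.81 and -0.81, and named genes are circled: Actg2, Acta2, Myl9 and Cnn1 stand above a log2 ratio of 4, and Arglu1 lies at -2.15 among the larger falls.

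Genes of contractile actin filaments led the rises. Actg2, the smooth muscle gamma actin, had 81 reads in siControl Dex and 2414 in siArglu1 Dex, and 91 and 1974 in the vehicle pair. Its log2 ratio in Dex was 4.59 (4.29 to 4.95), a 24.1-fold rise. Myl9, a regulatory light chain of smooth muscle myosin, went from 323 to 8052 reads (4.35, 4.19 to 4.52). Acta2, the smooth muscle alpha actin, went from 429 to 10255 reads (4.29, 4.15 to 4.43), and its cRPKM from 3.55 to 69.9. In both pairs the siArglu1 library was many times above its control for these 3 genes. The skeletal actin gene Acta1 rose by 3.38. Actin genes are nearly identical in their coding exons, and the sources used here do not say how reads that match several of them were counted, so the division of reads among them is uncertain.

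Of 22 smooth muscle contractile genes listed, 17 had enough reads to be tested, 11 of them were higher (64.7%, against 6.19% of all genes tested), 1 was lower and the median log2 ratio was 1.40. The median over all genes tested was 0.00. Cnn1, the calponin of smooth muscle thin filaments, had 3 reads in siControl Dex and 194 in siArglu1 Dex, a log2 ratio of 5.33 (4.16 to 8.02). Actc1, a cardiac actin, had 9 and 169 reads. The more abundant members moved less: the log2 ratio was 2.29 for Cnn2, 1.86 for Csrp1, 1.40 for the myosin light chain gene Myl6, 1.32 for Tpm2 and 1.17 for Tpm1. The smooth muscle myosin heavy chain Myh11 went from 28 to 138 reads (1.98, 1.42 to 2.65). Caldesmon (Cald1, 0.70), Tagln (0.43), Smtn (0.42) and desmin (Des, -0.25) lay inside the size rule. Myocd, the coactivator that drives smooth muscle differentiation, had 0 reads in all 4 libraries. The 7 defining markers of smooth muscle used for the cell type check are all members of this list, so they are not further genes. Of them 3 of the 5 tested were higher, and the summed cRPKM of the 7 went from 6.17 to 73.7. Of this sum Acta2 alone made up 3.55 and 69.9. Of 10 fibroblast markers 4 were tested and 0 passed the size rule: Fbln1 was at -0.12, Col1a1 at -0.05, Pdgfra at 0.35 (238 and 371 reads, 0.11 to 0.59) and Dcn at 0.61 (20 and 38 reads, -0.18 to 1.5). Their summed cRPKM was 101 and 93.5, nearly all of it Fbln1, and Twist1 was at 0 reads and Col3a1 and Lum at 0 and 1 in the Dex pair. Astrocyte markers summed to 0.08 and 0.07 and leukocyte markers to 0.73 and 0.62. In bulk RNA, more cells of a type and more RNA per cell cannot be told apart, and the part of other cell types in the result was not tested.

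SRF is the transcription factor that binds CArG boxes in muscle and cytoskeleton genes, with MRTF cofactors that are released when free actin falls. Of 26 tested genes of SRF, its cofactors and its cytoskeleton targets, 8 were higher (30.8%, against 6.19% of all genes tested), 1 was lower (3.85%, against 5.93%) and the median log2 ratio was 0.49. Tgfb1i1, which encodes the focal adhesion protein Hic-5, went from 1148 to 9247 reads (2.72, 2.63 to 2.81). Filip1l rose by 2.45 on the log2 scale, and Flna, the actin cross-linker filamin A, by 1.52, from 30856 to 107945 reads. Cyr61 (1.47), Pdlim7 (1.12), Itga5 (1.05), Lima1 (1.01) and Tpm4 (0.88) were the other members past the size rule. Srf itself had 5239 and 11185 reads, with a log2 ratio of 0.81 that rounded up to the limit from just below it, and the cytoplasmic actin Actg1 was at 0.80. Cfl1, which encodes the actin-severing protein cofilin, was the 1 lower member, with 29835 and 14453 reads (-1.33, -1.36 to -1.31). The higher members include filament and adhesion genes, and the lower member encodes a protein that takes filaments apart.

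RefSeq promoter windows of 300 bases, 250 before and 50 after the start, were searched on both strands for the CArG box. It stood in 3 of the 9 higher smooth muscle genes that have a window (Actc1, Cnn2 and Myl9), in 0 of the 4 inside the size rule, and in 1.44% of the windows of all genes tested. Among the SRF and cytoskeleton genes it stood in 1 of 6 higher genes (Lima1) and in 3 of 14 inside the rule (Actg1, Srf and Vcl). The motif was chosen after the values were seen, and a match describes the letters of a window, not a bound site. The 250 bases before the start of Myl9, at chr2:156775214-156775463 of GRCm38.p6 on the plus strand, are shown because this gene had the largest rise among those with a box, which is in capitals.
Myl9: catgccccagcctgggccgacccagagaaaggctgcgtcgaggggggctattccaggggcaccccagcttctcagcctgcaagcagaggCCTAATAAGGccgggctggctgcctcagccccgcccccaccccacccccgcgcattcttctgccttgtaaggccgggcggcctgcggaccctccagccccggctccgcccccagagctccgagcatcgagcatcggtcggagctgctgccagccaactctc

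Beyond actin and adhesion, the 12 largest rises at a mean cRPKM of at least 1 held genes of varied function. Prnd, a relative of the prion gene, went from 53 to 971 reads (3.88). Asb2, the substrate-binding subunit of a ubiquitin ligase that targets filamins, went from 25 to 440 (3.80, 3.27 to 4.49). Npas4, an activity-dependent transcription factor, went from 67 to 647 (2.96) and Glipr1 from 56 to 576 (3.05). Nme4, a mitochondrial nucleoside diphosphate kinase, rose by 2.75 on the log2 scale, the vitamin B12 carrier gene Tcn2 by 2.52, and Timp3, an inhibitor of metalloproteinases, by 2.45. All 12 were also past 0.81 in the vehicle pair, where their log2 ratios ran from 2.29 for Timp3 to 4.65 for Myl9.

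The largest falls were of another kind. Grap2, an adaptor of receptor tyrosine kinase signalling, went from 1429 to 260 reads (-2.74, -2.94 to -2.56) and Vwa5b1 from 7204 to 1362 (-2.69). Rmnd5a, a subunit of the CTLH ubiquitin ligase, had 12786 reads in siControl Dex and 2942 in siArglu1 Dex, and 12081 and 2217 in vehicle, with log2 ratios of -2.41 and -2.42. Ppp2cb, a catalytic subunit of protein phosphatase 2A, had 14931 and 3829 reads (-2.25). The transcription factor gene Myb was at -2.21, the semaphorin receptor gene Plxnc1 at -2.18, Gstm7 of glutathione conjugation at -2.17 and Bckdhb of branched-chain amino acid breakdown at -2.15. Arglu1 itself came twelfth with -2.15. The Groucho corepressor gene Tle6 had 1039 and 225 reads (-2.49). Selenbp1 also fell by 2.47 on the log2 scale, but only 68 positions of it were mappable and it rests on 68 and 14 reads.

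Interferon-stimulated genes encode antiviral and antigen-processing proteins and are switched on by IRF9 with STAT proteins. Of 34 tested, 15 were lower (44.1%, against 5.93% of all genes tested), 1 was higher, and the median log2 ratio was -0.74. Dtx3l, a ubiquitin ligase, had 857 reads in siControl Dex, 174 in siArglu1 Dex, 949 in siControl Veh and 112 in siArglu1 Veh, a log2 ratio of -2.58 in Dex (-2.83 to -2.35). Its partner Parp9 had 908 and 339 reads (-1.71), Parp12 had 1048 and 474 (-1.43) and Parp14 had 38 and 2 (-3.90, -7.63 to -2.58, and -0.77 on cRPKM with a pseudocount of 0.1). Psmb8, which encodes the immunoproteasome subunit LMP7, had 2011 and 610 reads (-2.01), and the peptide transporter gene Tap1 had 473 and 267 (-1.11). The antiviral genes Rsad2 (172 and 37 reads, -2.47), Mx2 (477 and 161, -1.85), Usp18 (339 and 124, -1.73) and Mx1 (58 and 22, -1.64) were lower as well, and so was the regulator Irf7 on only 42 and 10 reads (-2.23, -3.52 to -1.34). The higher member was the chemokine gene Cxcl10, with 22 and 71 reads (1.36, 0.69 to 2.16). Stat2 (-0.36) was inside the size rule. In the vehicle pair 15 members were lower, 0 were higher and the median was -0.71. The motif GAAANNGAAA, the core of the element bound by IRF9 and STAT proteins, was found on either strand in the promoter windows of 1 of 9 lower members (Rsad2), 9 of 16 inside the size rule, and 2.81% of the windows of all genes tested.

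**Figure D2:**
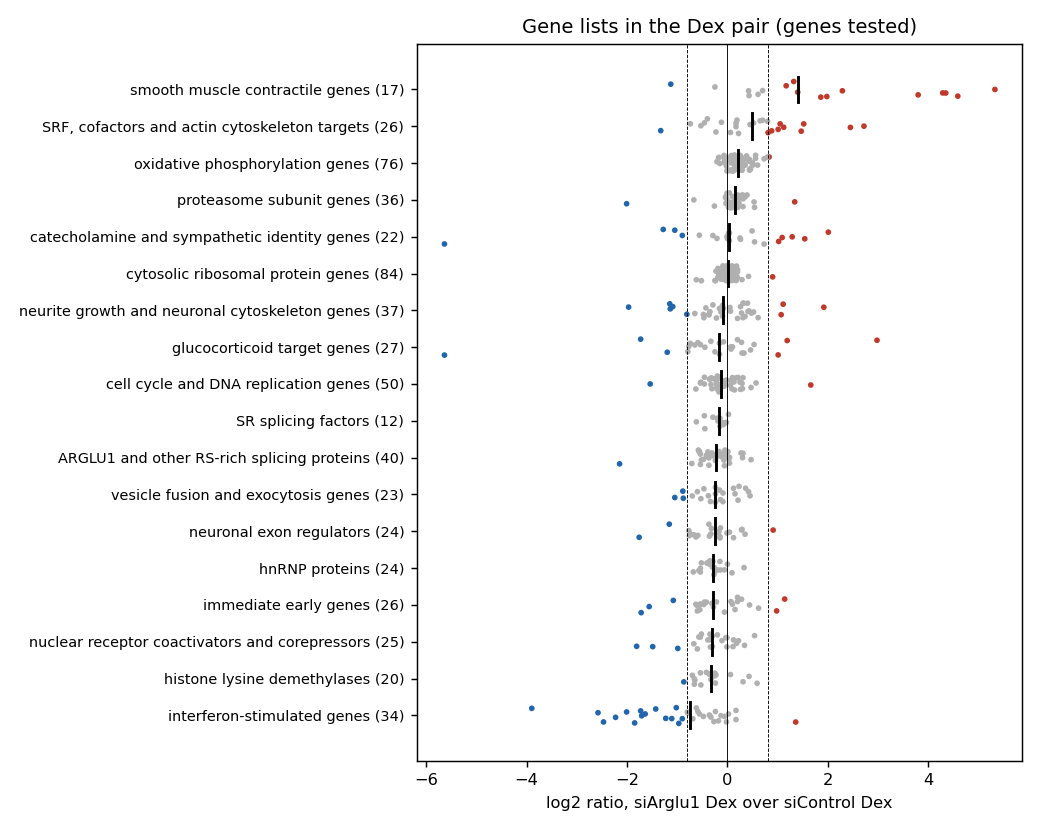
Each point is a tested gene of the list named on the y axis (number tested in brackets), placed at its log2 ratio of siArglu1 Dex over siControl Dex on the x axis, with vertical scatter for legibility. Black bars are list medians and dashed lines mark 0.81 and -0.81: the medians run from 1.40 for the smooth muscle contractile genes to -0.74 for the interferon-stimulated genes, and most other lists centre near 0.

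Target genes of GR were read for their level under Dex with and without Arglu1 knockdown. Of 27 glucocorticoid target genes tested, 3 were higher, 3 were lower (11.1% each way, against 6.19% and 5.93% of all genes tested) and 21 lay inside the size rule, with a median log2 ratio of -0.16. Part of this list was taken from genes named by the study for these libraries and is not independent of them. Of 6 widely known targets, 3 were near level and 3 were below 0 but inside the size rule. Fkbp5, the cochaperone of GR feedback, had 10307 and 13232 reads (0.07, 0.03 to 0.11), Tsc22d3, which encodes GILZ, had 3520 and 4596 (0.10), and the kinase gene Sgk1 had 8714 and 12907 (0.28, 0.24 to 0.32). The clock gene Per1 had 3116 and 2532 reads (-0.59), Klf9 had 336 and 240 (-0.77) and Ddit4 had 23101 and 16902 (-0.74). Counting intervals of all of these except Klf9 were narrower than 0.2 on the log2 scale.

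The 6 target genes past the size rule split both ways. Pla2g4d, a phospholipase A2 gene, had 44 reads in siControl Dex and 433 in siArglu1 Dex (2.98, 2.56 to 3.49), and 3 and 8 reads in vehicle. Slc10a6, a transporter of steroid sulfates, had 310 and 864 reads in Dex (1.19, 1.0 to 1.38) and 28 and 132 in vehicle (2.22, 1.66 to 2.90), so its ratio was larger in vehicle and the 2 intervals do not overlap. Lrp4, the agrin receptor gene, had 76 and 188 reads (1.01, and 0.66 on cRPKM). Crispld2 had 1251 and 666 reads in Dex (-1.20, -1.34 to -1.06) and 447 and 294 in vehicle (-0.58). The muscle ubiquitin ligase gene Trim63 had 54 and 19 reads (-1.73, -2.63 to -1.02). Pnmt, the enzyme that makes adrenaline from noradrenaline, had 89 reads in siControl Dex and 1 in siArglu1 Dex, with 1 in each vehicle library, a log2 ratio of -5.64 with an interval of -12.08 to -4.25. Under knockdown it thus stood in Dex where it stood in vehicle, on a single read.

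**Figure D3:**
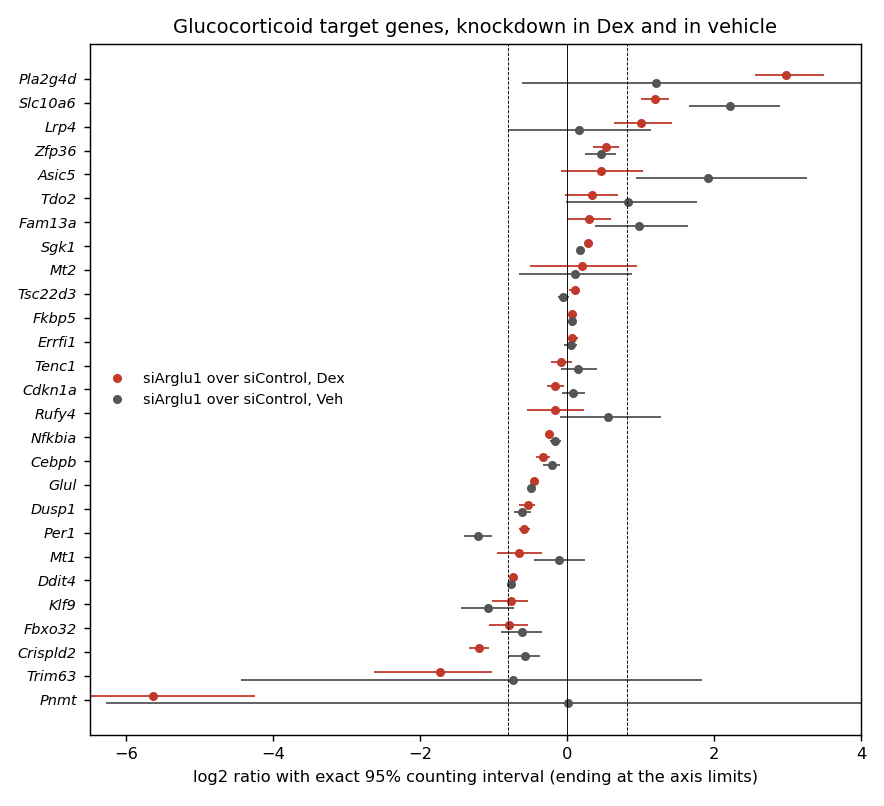
Points are the log2 ratios of siArglu1 over siControl for the 27 glucocorticoid target genes tested, in Dex (red) and in vehicle (grey), with exact 95% counting intervals as lines that end at the axis limits. Dashed lines mark 0.81 and -0.81: Fkbp5, Tsc22d3 and Errfi1 lie at 0 within 0.1 in both pairs, whereas Pla2g4d (2.98) and Pnmt (-5.64) lie at the ends in Dex and have wide intervals in vehicle because of few reads.

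GR recruits coactivators of the NCOA family and acetyltransferases, and NCOR corepressors keep other nuclear receptors silent. Of 25 such coregulator genes tested, 0 were higher and 3 were lower (12%, against 5.93% of all genes tested), with a median log2 ratio of -0.30. Ncoa7 had 2250 and 785 reads (-1.81, -1.93 to -1.69), the acetyltransferase gene Kat2b had 6833 and 2965 (-1.49) and Ncor1 had 15414 and 9511 (-0.99). These transcripts are long, and with the trend of ratios on transcript length removed Ncor1 moved to -0.74, inside the rule. Of 31 Mediator subunits tested, 0 passed in either direction. Among chromatin regulators, 1 of 20 histone lysine demethylases was lower (Phf8, -0.87, and -0.70 with the trend removed) and 1 of 32 histone lysine methyltransferases was higher (Nsd1, 1.6). In the list of CHD and SWI/SNF genes, which also holds Bptf of neither family, 2 of 34 were lower (Arid2, -1.25, and Pbrm1, -0.91, the latter -0.78 with the trend removed). These counts of chromatin regulators do not exceed the shares of all genes tested, 6.19% higher and 5.93% lower.

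Genes for the splicing machinery itself moved little. None of 12 SR factors, 24 hnRNP proteins, 18 branch site and 3′ splice site factors, or 14 CLK, SRPK and DYRK kinases passed the size rule. Their median log2 ratios were -0.17, -0.28, -0.11 and -0.23, and 21 of the 24 hnRNP genes were below 0, from -0.68 for Syncrip to 0.33 for Hnrnph2. Over all genes tested 12.1% passed, but calls were rarer among abundant genes. At a mean cRPKM of 30 to 100, 2.46% of genes were higher and 2.19% lower, and at 100 and over 2.89% and 1.16%. Most of the SR, hnRNP and splice site factors had a mean cRPKM over 30. Of 40 RS-rich splicing proteins Arglu1 alone was past the size rule. Of 24 regulators of neuronal exons 1 was higher (4.17%, against 6.19% of all genes tested) and 2 were lower (8.33%, against 5.93%). Ptbp2, the repressor of neuronal and synaptic exons that takes over from PTBP1 in young neurons, had 16547 reads in siControl Dex and 5972 in siArglu1 Dex (-1.76, -1.80 to -1.72), and 15690 and 4671 in vehicle. Mbnl2 had 3919 and 2140 reads (-1.16), and Elavl4, which encodes the neuronal RNA-binding protein HuD, was higher with 7056 and 16198 (0.91). The microexon activators were near level: Srrm4 had 3972 and 5262 reads (0.12) and Srrm3 had 3140 and 3453 (-0.15). Ptbp1 (-0.15), Rbfox2 (-0.67) and Nova1 (-0.77) were inside the size rule. Of 19 factors of nonsense-mediated decay, which removes transcripts with early stop codons, 0 were higher and 2 were lower, against 6.19% and 5.93%. The lower ones were Upf2 (-1.23) and Smg6 (-0.82), and Smg6 moved to -0.67 with the length trend removed.

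N2a cells make catecholamines and carry a sympathetic program. Of 22 tested genes of this program 5 were higher (22.7%, against 6.19% of all genes tested) and 4 were lower (18.2%, against 5.93%), with a median log2 ratio of 0.04. Dbh, which makes noradrenaline from dopamine, went from 623 to 3069 reads (2.01, 1.89 to 2.14) and from 529 to 2088 in vehicle (2.0). Th, the rate-limiting enzyme of the pathway, was lower with 597 and 391 reads (-0.90, -1.09 to -0.71), and Ddc between them was at -0.29. Steps of 1 pathway thus moved in opposite directions, Th and Pnmt down and Dbh up. Among the transcription factors, Gata3 had 576 and 2045 reads (1.54), Gata2 had 16301 and 8226 (-1.28), Mycn had 1274 and 3813 (1.29) and Phox2a had 5122 and 12705 (1.02). The neuropeptide gene Npy rose by 1.09 on the log2 scale and the neurturin receptor gene Gfra2 fell by 1.05.

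Among 37 tested genes of neurite growth and the neuronal cytoskeleton 3 were higher (8.11%, near the 6.19% of all genes tested) and 5 were lower (13.5%, against 5.93%). Rnd2, a small GTPase of neurite branching, had 15342 and 4770 reads (-1.97, -2.02 to -1.93). The microtubule proteins Dcx (175 and 96 reads, -1.15, and -0.75 on cRPKM) and Dclk1 (1727 and 957, -1.14) and the kinase gene Tnik (2454 and 1406, -1.09) were lower, and so was peripherin (Prph, 83043 and 57818 reads, -0.81), at the limit. Nrn1 (1.11) and Stmn4 (1.07) were among the higher. Of 38 axon guidance genes tested, 6 were higher (15.8%, against 6.19%) and 4 were lower (10.5%, against 5.93%). Nrp1, the neuropilin that binds semaphorins, went from 6922 to 18240 reads (1.11), Efna4 was at 1.75 and Sema4f at 1.38, while Plxnc1 (14318 and 3849 reads, -2.18), Slit1 (-1.06), Efnb3 (-1.04) and Plxna1 (-1.01) were lower, the last at -0.76 and inside the rule with the length trend removed. Of 23 vesicle fusion genes 0 were higher and 3 were lower (13%, against 5.93%), among them the synaptobrevin gene Vamp2 (7578 and 5001 reads, -0.89) and Napb (-1.05). Of 36 Notch pathway genes 5 were lower (13.9%, against 5.93%) and 0 were higher, 3 of the 5 being Groucho corepressors (Tle6, Tle2 and Tle1), with the ligand gene Dll1 (86 and 30 reads, -1.77) and Hey2 (-1.15).

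Immediate early genes answer growth signals within minutes, partly through SRF. Of 26 tested, 2 were higher (7.69%) and 3 were lower (11.5%), against 6.19% and 5.93% of all genes tested. Egr1 had 2499 and 1037 reads (-1.56, -1.66 to -1.45), Fosb had 137 and 50 (-1.72) and Dusp6, the ERK phosphatase gene, had 7033 and 4067 (-1.08), while Klf4 (1.14) and Nr4a3 (0.98) were higher. Of 24 tested collagens, laminins and integrins, 3 were higher (Itga5, Thbs1 and Lamc1) and 1 was lower (Col18a1, -1.0), against the same 6.19% and 5.93%.

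Most housekeeping groups stayed close to level. The counts in this paragraph stand beside 6.19% higher and 5.93% lower over all genes tested. Of 76 oxidative phosphorylation genes 64 were above 0 with a median log2 ratio of 0.20, which was 0.08 with the length trend described below removed, and 1, Sdhc, was past the size rule (0.83). Of 84 ribosomal protein genes 1, Rps27l, was higher (0.90, and 0.75 and inside the rule with the length trend removed) and the median was 0.01. Of 36 proteasome genes the constitutive subunit Psmb7 was higher (1.34) and the inducible subunit Psmb8 was lower (-2.01). Of 50 cell cycle genes Ccnd3, a G1 cyclin, was higher (1.66) and the CDK inhibitor gene Cdkn2c was lower (-1.54). Of 22 p53 targets the death receptor gene Fas was higher, on only 11 and 38 reads (1.42, 0.5 to 2.62), and Rrm2b (-1.59) and Trp53inp1 (-1.37) were lower. Of 29 genes of the integrated stress and unfolded protein response 1 was lower (Dnajc3, -0.91, and -0.78 with the length trend removed). Of 23 cholesterol synthesis genes 1 was higher (Tm7sf2, 0.96) and 1 was lower. Of 15 tested replication-dependent histone genes 3 were higher and 0 were lower, against 6.19% and 5.93% of all genes tested. Hist1h1c was among the higher with 604 and 1676 reads (1.18). Replication-dependent histone transcripts mostly lack a polyA tail, which a polyA library selects for. Of 309 zinc finger genes named Zfp 11 were higher (3.56%) and 3 were lower (0.971%), both shares under those of all genes tested.

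Ratios depended on the length of the transcript. In the bin of 1000 to 2000 mappable positions 8.68% of genes were higher and 4.84% lower, whereas from 8000 positions on 1.99% were higher and 13.2% lower. The median log2 ratio went from 0.16 at 500 to 1000 positions to -0.31 in the longest bin, and from 0.35 to -0.52 in the vehicle pair. The cause of this trend was not tested. With the trend removed, the contractile genes had a median of 1.30 with 11 higher, and the interferon-stimulated genes a median of -0.76 with 15 lower. Calls were also more frequent among sparse genes: under a mean cRPKM of 0.3, 15.5% of genes were higher and 16.8% lower, against 2.89% and 1.16% at 100 and over.

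Splicing was read from the percent spliced in (PSI), the percent of a gene's transcripts in which an exon is kept or a given splice site is used. The deposited tables cover cassette exons, microexons of 3 to 15 nt, and competing acceptor (3′, Alt3) and donor (5′, Alt5) splice sites, and give each PSI a score of coverage in words, of which OK stands for 40 to 99 and SOK for at least 100 reads in the Alt3 and Alt5 tables. An event was compared where no library lacked a PSI and 3 or more had a score of LOW or better, and is called changed where the difference of siArglu1 Dex minus siControl Dex (ΔPSI) was at least 15 in size. Of 57183 events compared, 869 were changed (1.52%), 377 with more inclusion (0.659%) and 492 with less (0.86%), in 742 genes. The share was 1.5% for simple cassette exons (370 of 24614, exact binomial interval 1.35% to 1.66%), 2.68% for exons in complex events (216 of 8061, 2.34% to 3.06%), 0.935% for Alt3 (132 of 14122) and 1.15% for Alt5 (116 of 10088). For microexons it was 11.7% (35 of 298, 8.32% to 16%). Loss of inclusion prevailed among microexons, where 85.7% of the changed events were lower, and among simple cassette exons (58.4%), but not in complex events (42.6%).

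Coverage bore on these counts. With a score of SOK in both Dex libraries, 274 of 35572 events were changed (0.77%), 66.4% of them lower. The shares for Alt3 and Alt5 then came down to 0.0934% and 0.255%, while that for microexons was 11.3% (17 of 151) and that for simple cassette exons 0.947%. Agreement in sign with the vehicle pair moved with coverage as well: 77.1% of the 869 changed events had the same sign of ΔPSI in vehicle, and 97.8% of the 274 with SOK had. For Alt3 and Alt5 events at all scores the share was 61.4% and 59.5%.

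Changed exons were most frequent at middling inclusion in siControl Dex (27.1% of exons at a PSI of 30 to 50, and 0.203% at 95 to 100), where there is room to move, and they also differed by exon length. Among exons of 1 to 15 nt 9.94% were lower and 1.55% higher, and among those of 16 to 27 nt, which the tables do not class as microexons, 9.15% were lower and 1.22% higher. From 28 to 51 nt the shares were 1.98% and 1.13%, and from 52 nt on neither direction exceeded 1.05% in a bin. Exons of middling inclusion, with a PSI of 15 to 85 in siControl Dex, can move either way, and among them the median ΔPSI was -12.84 for 60 exons of 1 to 15 nt, -8.48 for 87 exons of 16 to 27 nt, -0.84 at 28 to 51 nt and between 1.69 and 2.31 in the 4 longer bins. In this range of inclusion the short exons thus went down as a group, while exons over 51 nt were at or slightly above their control. Over all 298 microexons compared the median ΔPSI was 0.0, with 139 below 0 and 63 above. Reading frame also differed between gains and losses: 60.7% of the 338 cassette exons and microexons with less inclusion had a length that is a multiple of 3 and so keeps the reading frame, against 44.9% of the 283 with more inclusion, 40.4% of the exons compared and 50.5% of those of middling inclusion.

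**Figure D4:**
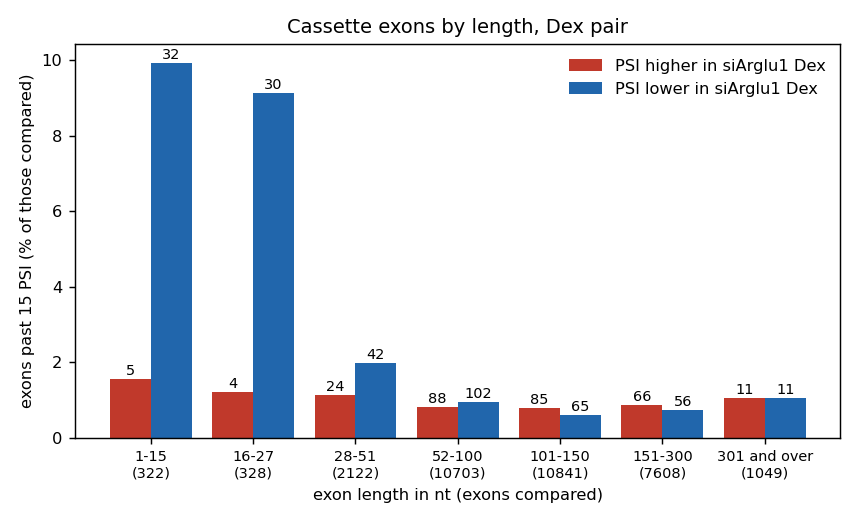
Bars give the percent of compared cassette exons and microexons whose PSI was at least 15 higher (red) or lower (blue) in siArglu1 Dex than in siControl Dex, by exon length in nt (number compared in brackets), with the number of exons above each bar. Losses make up 9.94% and 9.15% of the exons in the 2 shortest bins and 1.98% or less from 28 nt on.

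Of the 35 changed microexons 30 lost inclusion, in 29 genes, and 29 of the 30 keep the reading frame (96.7%). That share was already 81.2% over all microexons compared and 92.3% over those of middling inclusion. Of 52 microexons of middling inclusion in siControl Dex 44 had a ΔPSI below 0, with a median of -13.6. Nbea encodes neurobeachin, a scaffold protein of membrane traffic at synapses, and its 9-nt exon shown above had a PSI of 83.5 in siControl Dex, 31.8 in siArglu1 Dex, 83.2 in siControl Veh and 42.2 in siArglu1 Veh. The 12-nt exon of Lphn2, a latrophilin adhesion receptor, had 42.2 and 3.88 in the Dex pair and 39.6 and 5.15 in vehicle. Psap encodes prosaposin, the precursor of lysosomal saposins, and its 9-nt exon went from 56.3 to 18.3 in Dex and from 56.9 to 18.9 in vehicle. For these exons the libraries with the same siRNA lay close together and the siRNAs lay far apart.

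The 15-nt exon of Rapgef6, an exchange factor for RAP proteins, went from 39.1 to 8.05, and the 9-nt exon of Tacc2 from 40.3 to 6.67. The 6-nt exon of Git2, a GTPase-activating protein for ARF, went from 81.0 to 53.9, the 12-nt exon of the kinase-like gene Scyl2 from 90.3 to 61.5, and the 9-nt exon of Fryl from 84.3 to 43.7. Among the smaller losses, named after their values were seen for the genes that hold them, were the 12-nt exon of Agrn, the organizer of the neuromuscular synapse (34.3 and 8.22), the 12-nt exon of Dnm1, the dynamin of synaptic vesicle recovery (94.5 and 70.5), the 15-nt exon of the adhesion molecule L1cam (85 and 61.5), both 15-nt exons of the exchange factor Vav2 (74.0 and 51.3, and 62.4 and 41.6), and the 6-nt exon of Pacsin2 (36.3 and 12.1). The 5 gains were in Ank2 (25.2 and 52.7), Iffo1 (26.3 and 43.5), Incenp (18.2 and 34.7), Ccnl1 (2.81 and 19.0) and Cyth1 (55.4 and 71.4). Of the 35, 31 had the same sign in vehicle. The 4 that did not were Lphn1, Arhgef11, Mtss1l and Cyth1.

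**Figure D5:**
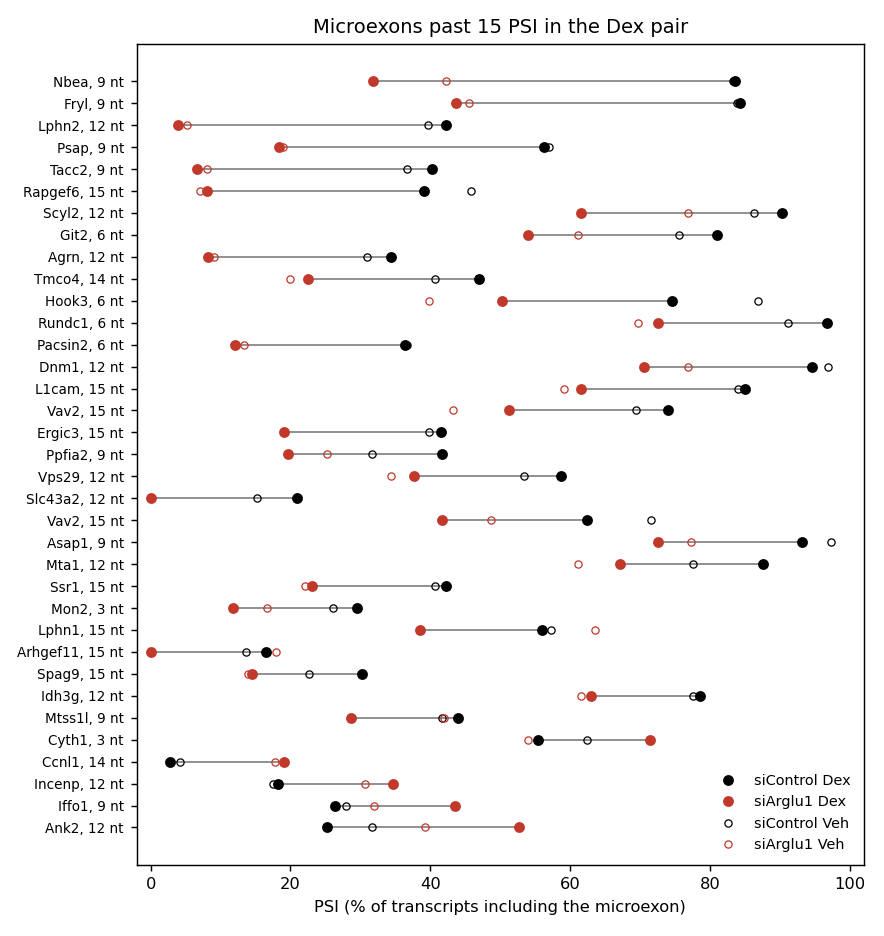
PSI of the 35 microexons changed in the Dex pair, by gene and length, on an axis in percent of transcripts that include the microexon. Filled points are siControl Dex (black) and siArglu1 Dex (red), joined by a line, and open points the vehicle libraries: for Nbea, at the top, PSI went from 83.5 to 31.8, and in the lowest 5 lines the red point lies to the right.

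Losses also prevailed among exons just above the microexon limit. The 27-nt exon of Snx14, a sorting nexin of endosomes, had a PSI of 55.5 in siControl Dex and 17.9 in siArglu1 Dex, and 62.2 and 21.8 in vehicle. An 18-nt exon of Fryl went from 68.4 to 22.3. Other losses, again named after their values were seen, were in a 24-nt exon of Clasp2, a microtubule plus-end protein (59.3 and 24.9), a 27-nt exon of the liprin gene Ppfia3 (71.3 and 36.3), a 21-nt exon of the kinase gene Mast2 (66.8 and 33.6), a 24-nt exon of Cpeb4, a regulator of cytoplasmic polyadenylation (56.5 and 27.9), a 24-nt exon of the transcription factor Mef2a (38.6 and 9.93), and a 21-nt exon of the translation factor Eif4g1 (63.0 and 36.2). In all, 30 of the 34 changed exons of 16 to 27 nt were losses.

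Among the longer exons with the largest changes was that of Ptbp2, at chr3:119427530-119427563 in mm9. Its 34-nt exon, whose skipping shifts the reading frame, had a PSI of 89.8 in siControl Dex, 44.5 in siArglu1 Dex, 90.3 in siControl Veh and 62.1 in siArglu1 Veh, all with the top score. Both the inclusion of this exon and the reads of the gene were thus lower in siArglu1 Dex. The 87-nt exon of Tnik (chr3:28493829-28493915) went from 67.6 to 25.3 and the 36-nt exon of Elmo2, an engulfment and RAC activation protein (chr2:165129166-165129201), from 62.5 to 21.9. A 108-nt exon of Bin1, a membrane-bending protein, went from 71.5 to 31.9, a 33-nt exon of the lipid flippase Atp9b from 71.0 to 33.8, and a 45-nt exon of 1700021K19Rik (chr16:32841623-32841667) from 56.7 to 8.15, the last with a vehicle change of only -7.57. The largest gains were a 109-nt exon of Mrps10, a mitochondrial ribosomal protein (chr17:47512883-47512991, 43.1 and 81.2), and a 147-nt exon of Epb4.1l2, a membrane skeleton protein (chr10:25215251-25215397, 24.4 and 59.6).

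Exon switches of genes well known for their isoforms, named after their values were seen, went in both directions. In Tpm1, whose reads rose as well, neighbouring 76-nt exons exchanged use: PSI went from 33.3 to 57.8 for 1 (chr9:66880273-66880348) and from 63.8 to 40.2 for the other (chr9:66879758-66879833), with 34.4 and 59.4, and 66.6 and 40.9, in vehicle. The 93-nt exon of Mapt, the gene of the microtubule-binding protein tau (chr11:104179471-104179563), went from 14.2 to 35.4 in Dex and from 18 to 39.2 in vehicle. A 118-nt exon of Snap25, a SNARE of vesicle fusion, went from 25.7 to 9.52, and a 42-nt exon of the transcription factor Pax6 from 25 to 4.35. A 30-nt exon of the vesicle priming gene Unc13a went from 36.6 to 18.6, and the 579-nt exon of the receptor phosphatase Ptprf from 72.1 to 97.2. These values repeated in vehicle within 15 PSI of the Dex difference.

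Alternative splice sites were changed less often than cassette exons. At a score of SOK in both Dex libraries 8 of 8 changed Alt3 events and 13 of 15 changed Alt5 events had the same sign in vehicle. In Alt3 the site of Cask, a synaptic scaffold kinase, was used in 16.7% of transcripts in siControl Dex and 48.8% in siArglu1 Dex, and in 12.2% and 51.9% in vehicle, on 150 and 172 junction reads in the Dex pair. A site of Hspb2 went from 76.2 to 38.3, on 42 and 81 reads, and a site of Zfp90 from 54.5 to 25, on 44 and 56. In Alt5, a site of the endocytic adaptor Eps15 went from 57.6 to 25.3 in Dex and from 58.0 to 21.3 in vehicle, and a site of Ccnt2, the cyclin T2 of transcription elongation, from 77.0 to 45.7 and from 72.2 to 45.1. A site of the kinase gene Srpk2 went from 73.4 to 41.7 in Dex and from 69.8 to 71.3 in vehicle. Ptma, with 66 and 74 junction reads in the Dex pair, and Thoc7, with 67 and 43, had opposite changes in the 2 pairs.

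By gene list, the regulators of neuronal exons had 8 changed events of 129 compared (6.2%, against 1.52% of all events), in 7 genes, among them Ptbp2, Cpeb4, Celf4, Mbnl1 (a 54-nt exon, 77.5 and 61.7) and Celf6 (a 150-nt exon, 58.3 and 80.0). The CLK, SRPK and DYRK kinases had 5 of 81 (6.17%), Clk1 among them with a 167-nt exon (93.8 and 75.9). Clk1 and Hipk2, the latter with a score of LOW, kept their sign in vehicle, and the other kinase events did not. Their ΔPSI in Dex and in vehicle was 18.2 and -3.68 for Prpf4b, and -31.8 and 1.53, and -21.1 and 13.4, for the events of Srpk2. No SR factor had a changed event of 61 compared. The hnRNP genes had 1 of 141 (0.709%, against 1.52% of all events), in Hnrnpa2b1 (a 73-nt exon, 30.7 and 11.7). Of 141 events in factors of nonsense-mediated decay 3 were changed (2.13%, against 1.52% of all events), all lower, among them an exon of Upf3b (41.3 and 19.4). Of 371 events in the list of CHD and SWI/SNF genes 6 were changed (1.62%, near the 1.52% of all events). Of the 6, 3 were in Bptf, which the list holds though it belongs to neither family. Lists of other functions ranged from 0% to 5.56% of events changed. The share was 5.56% for smooth muscle contractile genes (36 events), 4.94% for ribosomal protein genes, 4.2% for neurite genes and 4.18% for Zfp genes. A share well above 1.52% was thus not particular to splicing regulators and kinases. The glucocorticoid target genes had 0 changed events of 15, the immediate early genes 0 of 12 and the cell cycle genes 0 of 330. At the 1.52% of all events, 61, 15 or 12 events would hold few or no changed ones. The counts of 0 for SR factors, glucocorticoid targets and immediate early genes thus say little.

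Genes with a changed event were called in expression about as often as all genes. Of 8897 genes that could be called in both, 672 were changed in expression, 731 had a changed event and 58 had both, which is 8.63% of the former and 7.93% of the latter, near the 8.22% and 7.55% of all 8897 genes. The genes with a changed event had a median log2 ratio of -0.11, against -0.01 for all. Of the 58, 35 were lower in reads and 23 were higher. Ptbp2 and Tnik, described above, lost both inclusion and reads. In Ncor1 a 494-nt exon (chr11:62147165-62147658) gained inclusion, 54.8 and 81.8 in Dex and 79.1 and 100 in vehicle, with fewer reads. For this exon the siControl libraries also lay far apart, and siControl Veh was close to siArglu1 Dex. Cdk10 gained reads (786 and 3775, 1.97) and inclusion of a 103-nt exon (1.54 and 29.3). 4933436C20Rik and BC024814 gained both, Prune2 lost both (-0.83 in reads, and -0.52 with the length trend removed), and Kifc3 lost reads (4493 and 1820, -1.59) and gained inclusion of a 182-nt exon in Dex (42.4 and 71.4) but not in vehicle (40.9 and 37.7).

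The vehicle pair had more genes past the size rule, 875 higher (7.0%) and 1096 lower (8.77%). Of the genes higher in Dex 760 of 773 had a log2 ratio above 0 in vehicle and 603 passed 0.81 there, and of the lower genes 734 of 741 were below 0 and 633 passed. The pairs share no library, and a gene past the rule in 1 pair only is not shown to differ between them. The largest differences of the log2 ratio between pairs at a mean cRPKM of at least 1 were in genes with few mappable positions, between 26 for Npcd and 94 for Btg3, such as Rhox4e (32 and 37 reads in Dex, 53 and 13 in vehicle). Slc10a6, with 2076 mappable positions, was the exception. No difference between the pairs was tested.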

How the data were processed

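The authors sequenced 1 polyA-enriched TruSeq V2 library of RNA pooled from 3 cultures per group. The submitters' processing notes name Bowtie and mm9, with no version or role, and the study names vast-tools for splicing. The sources used here do not name the annotation. The authors deposited raw read counts per gene and, in the same table, RPKM corrected for mappability (cRPKM). A blank count was taken as 0. The PSI in the deposited splicing tables is a percent per library. The gene table also holds 2 columns with the authors' ratio of cRPKM between treatments, which were not used.

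Counts were scaled with TMM (edgeR 4.0.16, limma 3.58.1, R 4.3.3), and splicing was read with Python 3.11.15 (pandas 2.3.3, numpy 2.4.6, scipy 1.17.1, statsmodels 0.14.6, figures with matplotlib 3.10.9). Among 135197 rows of splice sites, 14 were duplicates and were dropped. The sites of an event were grouped and its reference site was left out. With 1 library a group the comparison itself has no test and no p-value, and the intervals and the size rules describe these libraries, not the conditions. Alternatives were DESeq2 1.42.0 size factors, library totals, cRPKM with a pseudocount of 0.1, no minimum on reads, other thresholds, an additive edgeR quasi-likelihood model over the 4 libraries, and removal of the length trend with a lowess of span 0.3 and 3 iterations. The scripts were tested on simulated data.

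Named genes are the 12 largest rises and falls at a mean cRPKM of at least 1, up to 3 members of each of 38 gene lists in each direction past the size rule (all members where 5 or fewer pass), genes the study names, and the 5 largest differences between the pairs in each direction. Named events are the 10 cassette exons, 8 microexons, 6 Alt3 and 6 Alt5 events with the largest ΔPSI at a score of OK or better, and the 8 genes of both kinds. Other members of the lists that are given with values, and events said to be, were chosen after the values were seen. A few members that the rule names are not reported here. The comparison, its members and the lists were chosen with earlier results of these data known. Of 35 changed microexons 23 were matched to GENCODE M21, and promoters are from RefSeq (GRCm38.p6).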

Additional observations from a re-analysis of the deposited data

Results flagged for a closer look

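An Alt3 event of Ptma, the prothymosin alpha gene, and an Alt5 event of Thoc7, a subunit of the mRNA export complex THO, moved in opposite directions in the 2 knockdown pairs. The ΔPSI of siArglu1 minus siControl was -49.9 in Dex and 20 in vehicle for Ptma, and 25.3 in Dex and -16.4 in vehicle for Thoc7. A3galt2 was the 1 gene past 0.81 in opposite directions, with a log2 ratio of 0.82 in Dex on 20 and 44 reads and of -1.16 in vehicle on 33 and 14. With 1 library a group these differences were not tested.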

How the results depend on the processing

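The counts of higher and lower genes (773 and 741) went to 1939 and 1799 with no minimum on reads, to 495 and 472 at a threshold of 1, to 156 and 144 at 1.5, and to 3847 and 3857 in the additive model over 4 libraries, which has 1 residual degree of freedom, a Benjamini-Hochberg adjusted p of 0.05 and no limit on size, and takes knockdown to act alike in both pairs. The counts of events (377 and 492) went to 968 and 1123 at a ΔPSI of 10, to 81 and 103 at 25, to 2535 and 2600 with no minimum on coverage, to 245 with more inclusion at a score of OK in both Dex libraries, and to 92 and 182 at SOK. Other scalings kept each count within 1.5 times and moved the median of all genes by at most 0.008 on the log2 scale. Of 114 named genes under 342 settings 0 changed sign, and 13 values fell inside the size rule, among them Dcx, Parp14 and Lrp4 on cRPKM and Ncor1, Phf8, Pbrm1 and Dnajc3 with the length trend removed. Removing that trend turned the sign of the median of 4 lists, namely collagens, laminins and integrins (0.08), axon guidance genes (0.06), histone lysine methyltransferases (0.02) and ribosomal protein genes (-0.08). The cause of these shifts was not tested. No paired analysis was possible because each group has 1 library and so no replicates to pair, although the additive model sets the siRNAs against each other within each treatment. For the same reason no library could be left out. Depth limits genes with few reads in 1 library, such as Cnn1, Parp14, Irf7 and Pnmt, whose intervals span more than 2 on the log2 scale.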
